A study of Homo sapiens with 6 samples.

Results

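Expression of 9 aldo-keto reductase genes was followed in HepG2 cells, an established human hepatoma line, after 24 h with glycine (10 mM) or vehicle. The genes were AKR1C1, AKR1C2, AKR1C3, AKR1B10, AKR1D1, AKR1A1, AKR1E2, AKR7A2 and AKR7A3, which are 9 of the 57500 genes counted. They were taken by name from the subfamilies 1A, 1B, 1C, 1D, 1E and 7A, and aldose reductase (AKR1B1) was kept aside as a related gene. The set was selected on earlier results of this same comparison, so its changes with glycine are given as a description, without p-values. All 6 libraries came from wild-type cells of this 1 line, with 3 libraries per group, and the vehicle cells were not glycine-free because the standard medium itself contains glycine. The comparison addresses how the transcriptome of these cells responds to added glycine.

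Aldo-keto reductases are cytosolic enzymes that use NADPH to reduce aldehydes and ketones to alcohols. In liver they act on steroids, bile acid precursors, prostaglandins, retinaldehyde, sugars and the reactive aldehydes left by lipid peroxidation. Several of them, AKR1B10 and the AKR1C genes among them, are known to be highly expressed in hepatoma lines and to respond to the oxidative stress factor NRF2.

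The libraries held between 31795489 and 58815986 counts, and 3 counts, taken as the limit that a count of 0 allows, corresponded to 0.0510 to 0.0943 CPM, the counts scaled to a common library size. Such limits cover counting error only. Of 15492 genes tested with the edgeR quasi-likelihood test, 2053 (13.3%) passed an adjusted p of 0.05, 1040 of them higher with glycine (6.71%) and 1013 lower (6.54%). In 31.6% of tested genes the 3 glycine values did not overlap the 3 vehicle values. All 10 hepatocyte markers examined were detected, with a summed level of 29645 to 33704 CPM in vehicle and 25466 to 29164 CPM with glycine. By the threshold, 2 of them (APOA1 and TTR) were lower. Their median log2 change was -0.23, with 8 of the 10 below 0, against a median of 0.00 for all tested genes. Of 7 markers of blood, endothelial, fibroblast and squamous cells, PTPRC, DCN and KRT5 had at most 9 counts in all libraries together. The summed level of the 7 was 8.11 to 8.82 CPM in vehicle and 10.1 to 11.1 CPM with glycine. COL1A1 and CD68 were higher and VWF was lower, 85.8% of the exon length of CD68 is overlapped by other genes, and the part of these shifts in the results below was not tested. In bulk RNA, fewer cells expressing a gene and less RNA per cell cannot be told apart.

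The 3 AKR1C genes are near copies of each other, and this bears on how their reads could be counted. Their coding sequences are each 972 bases long in GENCODE release 29. AKR1C1 and AKR1C2 differed at 19 of these bases (98.0% identical), AKR1C1 and AKR1C3 at 83 (91.5%) and AKR1C2 and AKR1C3 at 87 (91.0%). AKR1C4, the liver member of the same cluster, was 88.5% identical to AKR1C1. The first 90 coding bases of each gene follow from the start codon, with the bases that differ from AKR1C1 in capitals.
AKR1C1: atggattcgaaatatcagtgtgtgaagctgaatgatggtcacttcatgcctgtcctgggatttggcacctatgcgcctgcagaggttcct
AKR1C2: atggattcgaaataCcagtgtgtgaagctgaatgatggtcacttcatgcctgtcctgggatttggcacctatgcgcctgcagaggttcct
AKR1C3: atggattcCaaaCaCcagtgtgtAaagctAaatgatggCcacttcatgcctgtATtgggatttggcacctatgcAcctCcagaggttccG
AKR1C4: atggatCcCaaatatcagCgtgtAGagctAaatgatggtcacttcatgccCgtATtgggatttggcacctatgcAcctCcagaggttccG
In this stretch AKR1C2 differed from AKR1C1 at 1 base, AKR1C3 at 11 and AKR1C4 at 12.

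Every window of 50 and of 100 bases along each coding sequence was looked up in the transcripts of all other genes. For AKR1C1, 54.5% of the windows of 50 bases were also present, letter for letter, in another gene, and for AKR1C2 57.2% were. With 100 bases these shares were 21.0% and 26.7%. AKR1C3 was more distinct, at 23.0% and 9.74%. AKR1B10 shared 28.4% of its windows of 50 bases with AKR1B15 or the pseudogene AKR1B10P1, and 3.52% of those of 100 bases. AKR7A3 shared 31.4% and 11.9%, mostly with AKR7L, and AKR7A2 10.2% and 0.510%. AKR1A1 and AKR1E2 shared none at either length, and AKR1D1 0.322% at 50 bases and none at 100. How reads matching more than 1 gene were treated is not given in the sources used here, so the division of counts among AKR1C1, AKR1C2 and AKR1C3 is uncertain.

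**Figure D1:**
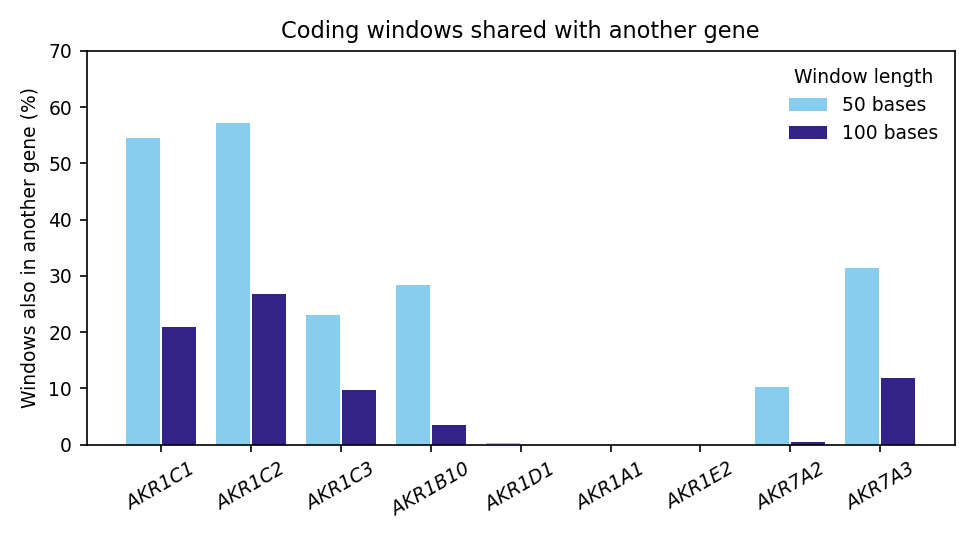
Share of coding windows of 50 bases (light bars) and 100 bases (dark bars) that also occur in the transcripts of another gene, in percent, for each of the 9 genes. AKR1C1 and AKR1C2 stand highest at both lengths, and AKR1A1 and AKR1E2 have no bar.

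The sequence around the RefSeq starts of these genes is alike too, and is shown because the 3 genes were all lower with glycine. RefSeq (GRCh38.p14) gave the 250 bases before and 50 after its gene start for 8 of the 9 genes. These starts differ from the ends of the gene spans printed below, which come from the annotation used for counting. The AKR1C2 and AKR1C3 windows lie inside those spans, and the AKR1C1 window crosses the start of its span. Which start these cells use was not tested. AKR1B10 was not among them. The windows of AKR1C1 (chr10:4963165-4963464, plus strand), AKR1C2 (chr10:5003808-5004107, minus strand) and the downstream start of AKR1C3 (chr10:5094164-5094463, plus strand) are given 5′ to 3′ along the gene, with capitals marking a CCAAT box read on the opposite strand.
AKR1C1: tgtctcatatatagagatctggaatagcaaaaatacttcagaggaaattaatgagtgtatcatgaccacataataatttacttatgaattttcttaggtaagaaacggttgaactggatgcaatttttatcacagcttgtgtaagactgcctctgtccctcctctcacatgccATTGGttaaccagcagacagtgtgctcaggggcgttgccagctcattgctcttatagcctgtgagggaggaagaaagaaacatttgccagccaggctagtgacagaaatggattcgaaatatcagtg
AKR1C2: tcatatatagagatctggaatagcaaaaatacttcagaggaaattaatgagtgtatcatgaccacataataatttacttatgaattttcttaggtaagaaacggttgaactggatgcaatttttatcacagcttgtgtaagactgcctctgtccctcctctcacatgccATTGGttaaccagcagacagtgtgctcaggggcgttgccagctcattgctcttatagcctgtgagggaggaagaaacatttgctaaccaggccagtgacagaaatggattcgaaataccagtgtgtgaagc
AKR1C3: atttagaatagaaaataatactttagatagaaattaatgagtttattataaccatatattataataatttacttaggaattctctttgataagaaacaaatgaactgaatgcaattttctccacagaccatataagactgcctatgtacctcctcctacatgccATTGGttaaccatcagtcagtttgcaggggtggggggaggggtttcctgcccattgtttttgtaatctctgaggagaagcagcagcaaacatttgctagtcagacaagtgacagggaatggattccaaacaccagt
The AKR1C1 and AKR1C2 windows were 98.6% identical over 292 aligned bases. The AKR1C3 window was 79.5% identical to that of AKR1C1 and 79.9% to that of AKR1C2. For the upstream AKR1C3 window, not printed, these shares were 77.3% and 77.0%. The window of AKR1C4, a gene not called lower, was 68.2% identical to that of AKR1C1 and 65.6% to that of AKR1C2. It was 73.9% identical to the printed AKR1C3 window. The inverted CCAAT box lay at -77 to -73 from the RefSeq start in AKR1C1, at -81 to -77 in AKR1C2 and at -86 to -82 in the printed AKR1C3 window.

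A set of 4 short motifs were searched on both strands. CCAAT occurred in 34.6% of 35116 promoter windows of the same length, and in the set also in the upstream AKR1C3 window and those of AKR1E2. The core of the antioxidant response element (TGACNNNGC), the site read by NRF2, occurred in 13.3% of all windows. Among the 8 genes only the AKR7A2 windows held it, with 3 matches. The AP-1 site TGACTCA, which opens with the same letters and can overlap it (4.95% of all windows) was found in none of the 8, and TATAAA (11.5%) in the upstream AKR1C3 window alone. A match is only a match of letters, and a site outside these 300 bases would not be seen.

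Of the 9 genes, 7 passed the filter on low counts. AKR1E2 and AKR7A3 did not. Lower levels with glycine were called for 4 of the 7, AKR1C1, AKR1C2, AKR1C3 and AKR1B10, and higher levels for 0. In 5 of the 7 the groups did not overlap. The background shares for these counts are 6.54%, 6.71% and 31.6% of all tested genes, and nothing is read from the comparison because the set was chosen on this contrast. The median log2 change of the 7 was -0.55, against 0.00 for all tested genes.

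AKR1C1 (chr10:4963253-4983283, plus strand) reduces the side chain ketone of progesterone and so inactivates it. It was the most abundant of the 9 genes. Its level was 2386, 2946 and 2611 CPM in the vehicle libraries and 904, 940 and 817 CPM in the glycine libraries. The lowest vehicle library thus stood far above the highest glycine library. The vehicle mean was 2648 ± 282 CPM and the glycine mean 887 ± 63.3 CPM (SD, n = 3 each), a log2 change of -1.58 ± 0.0946 (SE), so that it fell by 66.5%. Ordered by counts, without division by length, AKR1C1 was at place 18 of all genes in vehicle cells and at place 116 with glycine. Of the 2241 tested genes averaging 100 CPM or more, 0 had a lower log2 change. Below that level, genes such as LINC03060 (-1.85 ± 0.234) and AKR1B10P1 (-1.61 ± 0.253) had lower ones. Nothing is read from this place or from those of the other genes below, because the set was chosen on this contrast.

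AKR1C2 (chr10:4987400-5018031, minus strand) reduces dihydrotestosterone to a weak androgen and binds bile acids. It stood at 914, 1121 and 968 CPM in vehicle and at 463, 496 and 384 CPM with glycine. The groups were well apart here as well. Means were 1001 ± 108 CPM in vehicle and 448 ± 57.5 CPM with glycine, and the log2 change was -1.16 ± 0.102.

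AKR1C3 (chr10:5035354-5107686, plus strand) forms testosterone from androstenedione and also acts as a prostaglandin F synthase. Its values were 246, 283 and 261 CPM in vehicle and 184, 188 and 167 CPM with glycine. The groups did not overlap, but the gap was narrower than for the other 2 AKR1C genes. Vehicle and glycine means of 263 ± 18.4 and 180 ± 11.3 CPM gave a log2 change of -0.55 ± 0.0722.

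AKR1B10 (chr7:134527592-134541408, plus strand) reduces retinaldehyde and lipid-derived aldehydes, and is known as a gene switched on in hepatocellular carcinoma. It was measured at 268, 340 and 272 CPM in vehicle and at 126, 141 and 101 CPM with glycine. No glycine library reached the lowest vehicle library. The means of 293 ± 40.3 CPM in vehicle and 122 ± 20.6 CPM with glycine corresponded to a log2 change of -1.26 ± 0.117. Of the same 2241 genes, 2 had a lower log2 change than AKR1B10, 3 than AKR1C2 and 39 than AKR1C3.

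AKR1D1 (chr7:138002324-138117986, plus strand) reduces the steroid A ring on the way from cholesterol to bile acids. It was low, at 14.8, 14.7 and 14.5 CPM in vehicle and 13.3, 12.6 and 12.3 CPM with glycine. The groups did not overlap, yet the gene was not past the threshold. Its log2 change was -0.21 ± 0.0770, from means of 14.7 ± 0.183 and 12.7 ± 0.526 CPM.

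AKR1A1 (chr1:45550543-45570049, plus strand) is the general aldehyde reductase that turns glucuronate into gulonate. It was at 104, 122 and 120 CPM in vehicle and 127, 130 and 115 CPM with glycine, so the groups overlapped. The log2 change was 0.10 ± 0.0748. AKR7A2 (chr1:19303965-19312146, minus strand), which reduces succinic semialdehyde and the dialdehyde of aflatoxin, was at 73.8, 70.6 and 83.6 CPM in vehicle and 76.0, 79.5 and 75.1 CPM with glycine. The groups overlapped again, with a log2 change of 0.02 ± 0.0715.

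AKR7A3 (chr1:19282558-19289250, minus strand), the other aflatoxin aldehyde reductase, had 8, 3 and 12 counts in vehicle and 4, 7 and 5 with glycine, 39 in all. A difference was not detectable at this depth. AKR1E2 (chr10:4786629-4848062, plus strand), which reduces anhydrofructose, had 0 counts in all 6 libraries. If reads of AKR1E2 could be assigned to it, this allows a level of up to 0.0510 to 0.0943 CPM depending on the library, but whether the counting could do so was not tested.

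**Figure D2:**
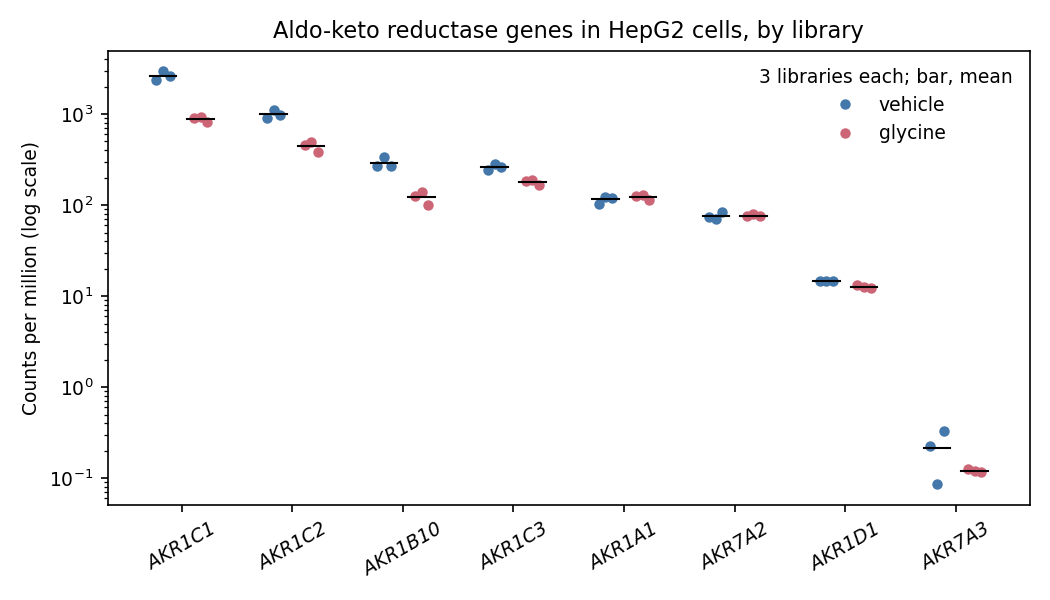
Level of 8 of the 9 genes in CPM (log axis), 1 point for each of the 3 vehicle (blue) and 3 glycine (red) libraries, with a bar at each mean. AKR1C1, AKR1C2, AKR1B10 and AKR1C3 are lower in all 3 glycine libraries, AKR1A1 and AKR7A2 overlap, and AKR1E2, with 0 counts, is not drawn.

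The 4 genes that were lower with glycine had the same order among replicates. In vehicle, replicate 1 was the lowest and replicate 2 the highest for AKR1C1, AKR1C2, AKR1C3 and AKR1B10. With glycine, replicate 3 was the lowest and replicate 2 the highest for all 4. AKR1A1 had the same lowest and highest libraries, whereas AKR1D1, AKR7A2 and AKR7A3 did not. Of the 9111 tested genes averaging 10 CPM or more, 694 (7.62%) had the order of AKR1C1, these genes included. The AKR1C genes share sequence and are not separate observations, and whether shared reads gave them a common order was not tested. Glycine replicate 2 was also the deepest library. The replicate spread was 10.6% of the mean for AKR1C1 in vehicle (coefficient of variation), 13.7% for AKR1B10 and 1.25% for AKR1D1.

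As counted, the AKR1C genes did not fall by the same proportion. Their ratios rest on the division of counts among them, which is uncertain. AKR1C2 was counted at 37.8 ± 0.654% of AKR1C1 in vehicle and 50.4 ± 2.97% with glycine (SD, n = 3 each). AKR1C3 was at 9.96 ± 0.359% of AKR1C1 in vehicle and 20.3 ± 0.238% with glycine. Neither ratio overlapped between the groups. AKR1C3 to AKR1C2 went from 26.3 ± 0.995% to 40.4 ± 2.82%, also without overlap. AKR1B10 and AKR1C1 lie on different chromosomes, and their ratio moved from 11.1 ± 0.582% to 13.7 ± 1.37%. When the counts of AKR1C1, AKR1C2, AKR1C3 and AKR1C4 were added, the log2 change was -1.37 ± 0.0991. The sum does not depend on how the counted reads were divided among these genes. Reads left out for matching several genes would be missing from it, and whether any were was not tested.

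Together the 9 genes took 0.402, 0.479 and 0.434% of the counts of the vehicle libraries and 0.190, 0.198 and 0.170% of those of the glycine libraries. AKR1C1 alone took 0.239 to 0.288% in vehicle and 0.0828 to 0.0935% with glycine.

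The ratios and places above used counts not divided by length, whereas the levels below were divided by length to compare different genes. Per kb of annotated exon, vehicle levels ran from AKR1C1 (302 ± 32.1 CPM per kb) through AKR1B10 (168 ± 23.1), AKR1C2 (155 ± 16.7), AKR1C3 (58.0 ± 4.06), AKR7A2 (42.7 ± 3.82), AKR1A1 (37.0 ± 3.16) and AKR1D1 (4.74 ± 0.0593) to AKR7A3 (0.126 ± 0.0727) and AKR1E2 (0). AKR1B10 and AKR1C2 overlapped over the 3 vehicle libraries, and no other neighbours did. With glycine AKR1C3 (39.7 ± 2.49) lay below AKR7A2 (43.2 ± 1.31) in all libraries and overlapped AKR1A1 (39.7 ± 2.45). The annotated exons of AKR1C1 sum to 8.77 kb, against a coding length of 0.972 kb, and the order depends on which length is used. Per kb of coding length, AKR1C2 (1030 ± 111 CPM per kb) came second after AKR1C1 (2724 ± 290), and AKR1B10 (309 ± 42.3) overlapped AKR1C3 (271 ± 18.9). With glycine AKR1C3 moved up from place 4 to place 3 by this length, at 185 ± 11.6 against 129 ± 21.7 for AKR1B10 and 127 ± 7.83 for AKR1A1. On that scale AKR1C1 made up 60.0% of the summed level of the 9 genes in vehicle and 48.1% with glycine, and AKR1C3 5.97% and 9.75%.

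**Figure D3:**
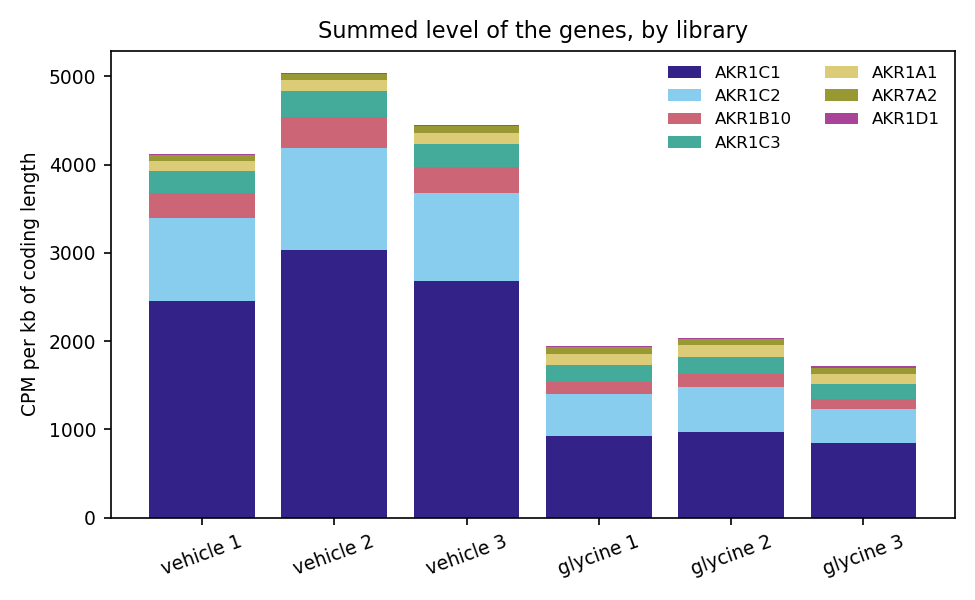
Level per kb of coding length (CPM per kb) of 7 genes, stacked for each of the 6 libraries. The AKR1C1 segment runs from 2455 to 3031 in the vehicle libraries and from 840 to 967 in the glycine libraries, and the AKR1A1 and AKR7A2 segments stay of like height. AKR7A3 and AKR1E2 are too low to draw.

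Among the 21 further genes named as AKR1 or AKR7 in the files, 4 were tested, 3 of which were lower with glycine and 0 higher. Of all tested genes, 6.54% were lower and 6.71% higher. Aldose reductase (AKR1B1), which makes sorbitol from glucose, was at 244, 270 and 266 CPM in vehicle and 127, 144 and 129 CPM with glycine. The groups did not overlap, with a log2 change of -0.96 ± 0.0712 and an edgeR adjusted p of 2.59e-06. AKR1B15, the neighbour of AKR1B10 on chromosome 7, was scarce, at 1.25 ± 0.332 CPM in vehicle and 0.460 ± 0.125 CPM with glycine (log2 change -1.41 ± 0.275, adjusted p 0.00459). The processed pseudogene AKR1B10P1 on chromosome 10, named after its values were seen, went from 1.32 ± 0.208 to 0.434 ± 0.115 CPM (log2 change -1.61 ± 0.253, adjusted p 0.000988). Both had under 1% of the counts of AKR1B10: AKR1B15 0.421 ± 0.0703% in vehicle and 0.393 ± 0.171% with glycine, and AKR1B10P1 0.454 ± 0.0771% and 0.352 ± 0.0632%. These ratios overlapped between the groups. AKR1B15 is 92.6% identical to AKR1B10 in coding sequence, and whether its counts and those of the pseudogene are reads of AKR1B10 was not tested.

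AKR1C4, which reduces steroid ketones in bile acid synthesis, was near the limit of detection. It was at 0.255 ± 0.100 CPM in vehicle and 0.434 ± 0.208 CPM with glycine, with a log2 change of 0.73 ± 0.426 and an adjusted p of 0.302. Its groups overlapped. The other 17 genes had at most 57 counts in all libraries together, and 9 of them had none.

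**Figure D4:**
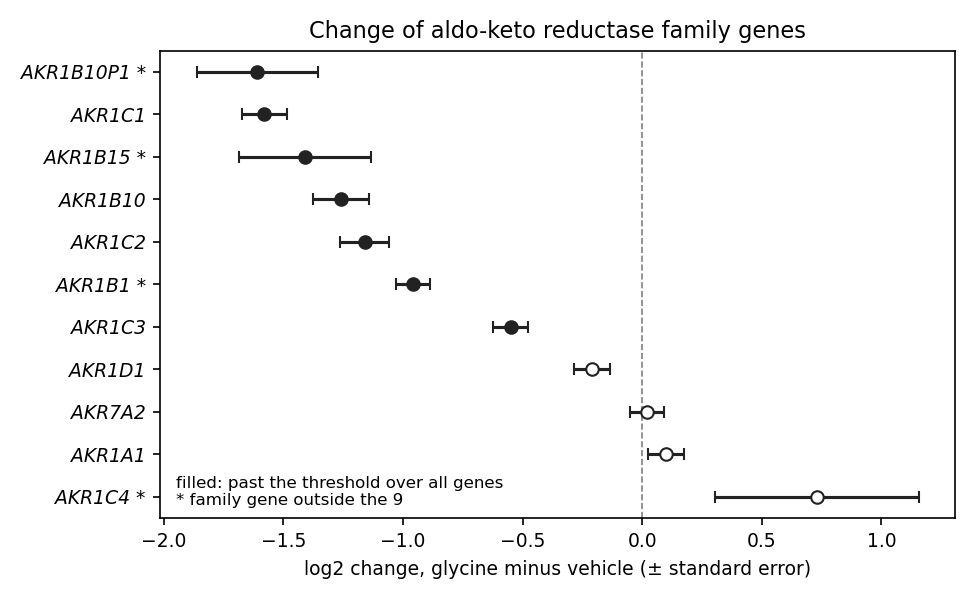
Log2 change between glycine and vehicle with its standard error for the 7 tested genes of the set and 4 related genes (asterisk), ordered by change. Filled points are past the threshold over all 15492 genes. AKR1B10P1, AKR1C1, AKR1B15, AKR1B10, AKR1C2, AKR1B1 and AKR1C3 are filled and lie to the left of 0, AKR1D1 is open at -0.21, and AKR7A2, AKR1A1 and AKR1C4 at or to the right of it.

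On the chromosome, the AKR1C genes lie in a row in which AKR1C2 runs on the opposite strand. AKR1C1 and AKR1C2 are 4.12 kb apart and AKR1C2 and AKR1C3 17.3 kb. AKR1C4 was the only other tested gene within 250 kb of any of the 3. The pseudogenes AKR1C5P and AKR1C6P between and beside them had 0 counts, AKR1C8 had 3 and AKR1C7P 10.

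**Figure D5:**
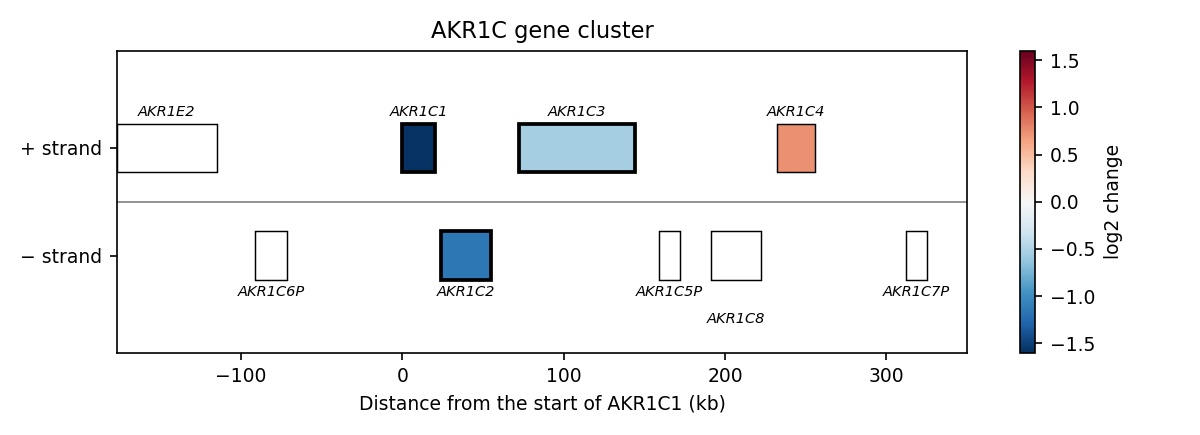
Map of the AKR1C cluster and AKR1E2, with distance from the start of AKR1C1 in kb and genes drawn to scale above (plus strand) or below (minus strand) the line. Colour gives the log2 change, thick borders mark genes past the threshold and white boxes were not tested. The 3 blue genes, AKR1C1 (-1.58), AKR1C2 (-1.16) and AKR1C3 (-0.55), are adjacent.

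AKR1B10 lies on chromosome 7 among other genes that were lower with glycine. Of its 6 tested neighbours within 250 kb, 4 fell, against 6.54% of all tested genes. The 4 include AKR1B1 and AKR1B15, the family genes described above. Whether the few counts of AKR1B15 are reads of AKR1B10 was not tested, so it may not be a separate observation. AKR1B1 is 68.3 kb away and AKR1B15 7.73 kb. The non-coding gene LINC03060, at 95.1 kb, was at 3.14, 2.75 and 3.59 CPM in vehicle and 1.35, 0.615 and 0.805 CPM with glycine (log2 change -1.85 ± 0.234, adjusted p 0.000175). SLC35B4, a nucleotide sugar transporter 211 kb away, had a log2 change of -0.23 ± 0.0705 (adjusted p 0.0440). Around all 9 genes, 31 other genes were tested within 250 kb, of which 6 fell (6.54% of all genes fell) and 3 rose. The other falls were near AKR1A1: PRDX1, a peroxiredoxin 27.5 kb away (log2 change -0.34 ± 0.0763, adjusted p 0.0105), and ZSWIM5 at 244 kb (-0.46 ± 0.0693, adjusted p 0.000701). The rises were MMACHC, a cobalamin processing enzyme (0.38 ± 0.0752, adjusted p 0.00541), and the DNA glycosylase MUTYH (0.32 ± 0.0837, adjusted p 0.0222) near AKR1A1, and MRTO4, a ribosome assembly factor (0.30 ± 0.0709, adjusted p 0.0127), near AKR7A2 and AKR7A3.

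Enzymes that share substrates with the set were counted next, by edgeR adjusted p over all genes. For each list below, the background is 6.71% of all tested genes higher with glycine and 6.54% lower. The medians below stand beside 0.00 for all tested genes and -0.23 for the 10 hepatocyte markers. The short-chain dehydrogenases are the other large family of carbonyl reductases. Of 15 tested, 1 rose and 1 fell, and the median log2 change was -0.04. The riser was DHRS2, a dicarbonyl reductase, from 1976 ± 91.9 to 2491 ± 4.91 CPM (log2 change 0.33 ± 0.0763, adjusted p 0.0115). DHRS4, a retinal reductase, fell from 80.9 ± 1.97 to 68.9 ± 4.85 CPM (adjusted p 0.0367), and 14.4% of its exon length overlaps an antisense gene. This call was lost when vehicle replicate 1, vehicle replicate 3, glycine replicate 1 or glycine replicate 3 was left out, and that of DHRS2 without glycine replicate 1.

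Steroid and bile acid enzymes around AKR1C and AKR1D1 numbered 21 tested, of which 4 fell and 1 rose (median log2 change -0.09). CYP27A1, the sterol hydroxylase of the acidic bile acid route, fell from 230 ± 9.47 to 186 ± 3.61 CPM (adjusted p 0.00563). CYP8B1, which sets the share of cholic acid, fell from 2.10 ± 0.406 to 1.05 ± 0.170 CPM (adjusted p 0.00576). HSD11B2, which inactivates cortisol, fell from 24.9 ± 1.58 to 18.1 ± 0.347 CPM (adjusted p 0.00114), and HSD17B11 by 0.24 on the log2 scale (adjusted p 0.0218). HSD17B8 rose from 10.5 ± 0.521 to 14.2 ± 1.72 CPM (adjusted p 0.0102), a call lost without glycine replicate 2.

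Of 9 genes of the polyol and glucuronate routes around AKR1A1, 3 fell and 0 rose. Besides AKR1B1 these were UGDH, which makes UDP-glucuronate (600 ± 22.0 to 431 ± 52.2 CPM, adjusted p 0.00240), and CRYL1, a gulonate dehydrogenase acting after AKR1A1 (56.2 ± 5.15 to 43.9 ± 1.93 CPM, adjusted p 0.00780). The median log2 change was -0.12.

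Among 12 other genes of aldehyde removal, 3 fell and 1 rose, with a median of -0.04. ALDH1A1, which oxidises the retinaldehyde that AKR1B10 reduces, fell from 816 ± 50.7 to 627 ± 35.0 CPM (adjusted p 0.00513). Mitochondrial ALDH2 fell from 218 ± 11.6 to 182 ± 3.81 CPM (adjusted p 0.0149), and PTGR1, a reductase of lipid enals, from 31.3 ± 4.66 to 23.0 ± 2.30 CPM (adjusted p 0.0126). Another gene overlaps 24.1% of the exon length of PTGR1. ALDH3A1, which oxidises aromatic and lipid aldehydes, rose from 11.1 ± 1.31 to 20.6 ± 1.66 CPM (adjusted p 5.54e-05). Without glycine replicate 3, the falls called in this list numbered 1.

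Of 21 tested genes of NRF2, its regulators and its targets outside the family, 5 fell and 0 rose, with a median of -0.13. A log2 change below 0 was seen in 15 of the 21, where the median of all tested genes was 0.00. These 15 include the regulators KEAP1 and BACH1, named after their values were seen, and so are not all targets. The genes not among the 5 were not past the threshold. HMOX1, named after its values were seen, was at 66.1 ± 5.46 CPM in vehicle and 77.0 ± 2.72 CPM with glycine (log2 change 0.22 ± 0.0708). NFE2L2, the gene of NRF2 itself, fell from 227 ± 7.34 to 176 ± 11.9 CPM (adjusted p 0.00271). The epoxide hydrolase EPHX1 fell from 343 ± 28.0 to 218 ± 17.5 CPM (adjusted p 0.000137), OSGIN1 from 63.1 ± 3.83 to 46.9 ± 1.45 CPM (adjusted p 0.000885), and the quinone reductase NQO1 from 1155 ± 97.4 to 927 ± 89.6 CPM (adjusted p 0.0330). GCLC, of glutathione synthesis, fell by 0.22 on the log2 scale (adjusted p 0.0325). Each of the 5 falls was smaller on the log2 scale than that of AKR1C1, AKR1C2 or AKR1B10, while EPHX1 (-0.65 ± 0.0795) changed by more than AKR1C3 (-0.55 ± 0.0722). The set was chosen on this contrast, so nothing is read from its larger changes. Other genes overlap 20.9% of the exon length of NFE2L2 and 17.7% of that of NQO1. The falls numbered 3 without vehicle replicate 2, glycine replicate 1 or glycine replicate 3.

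The reductases draw on NADPH made by other enzymes. Of 7 tested genes of NADPH supply, 2 fell, with a median of -0.16. IDH1, the cytosolic isocitrate dehydrogenase, fell from 618 ± 6.40 to 461 ± 11.3 CPM (adjusted p 0.000708), and ALDH1L1, the folate enzyme, from 69.5 ± 4.50 to 42.6 ± 3.53 CPM (adjusted p 5.21e-05).

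The genes most like AKR1C1 over the 6 libraries were ANKRD54 and SLC6A9 (Pearson r of log2 CPM 0.9989 each), ZSCAN5A (0.9984), CREB3L3 (0.9980) and HEBP1 (0.9979), among 9104 compared. SLC6A9 encodes the glycine transporter GlyT1 and was at 36.2 ± 2.43 CPM in vehicle and 19.9 ± 0.356 CPM with glycine. Within the set, AKR1C2 (0.9931), AKR1C3 (0.9891) and AKR1B10 (0.9863) followed AKR1C1 closely, as did AKR1D1 (0.9466), which was not past the threshold, and AKR1A1 (-0.3980) and AKR7A2 (-0.1401) did not. For AKR1B10, AKR1C2 reached 0.9983, and outside the set NDRG2 (0.9977), GALM (0.9973), ALDH1A1 (0.9949), PKLR (0.9948) and ALDH1L1 (0.9945) came closest. The 6 points form the 2 treatment groups, so these values mostly describe the difference between them.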

How the data were processed

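RNA of HepG2 cells was sequenced in 6 libraries, assigned to group and replicate from their labels. In the deposited files each gene has a raw count of reads, as a whole number, that the authors had not normalised. The submitters' processing notes name Trimmomatic 0.36, STAR 2.5.2b, featureCounts of Subread 1.5.2 and the build GRCh38. The strand setting, the treatment of reads matching several genes and the annotation release are not given in the sources used here, so overlapping and near-identical genes could have been counted in more than 1 way. The 3 replicates of each group are described as independent biological replicates, which the study's methods define as experiments on different days. The study also states that its cell-based assays had controls and treated cells together in every run and on every day. Which libraries shared a day is not given by the labels, and the main test, on group alone, takes no account of it.

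Counts were tested with the two-sided quasi-likelihood test of edgeR 4.0.16 (R 4.3.3) on the group alone, after the edgeR expression filter (minimum count 10, minimum total 15) and trimmed mean of M values scaling. Adjusted p-values (Benjamini-Hochberg, 15492 genes) had a threshold of 0.05, and the standard error was that of the log2 change. The code was checked on simulated data. The depth was 31795489 to 58815986 counts per library. The genes of the set and the related lists were chosen with earlier results of these data known, and 1 gene of these lists is not reported here. Named genes were all 9 of the set, up to 5 called genes per related list by smallest p, called genes within 250 kb, and the 5 genes most correlated with AKR1C1 and with AKR1B10. Coding sequences and windows came from GENCODE release 29, and promoters from RefSeq. Alternatives were other scalings and filters, DESeq2 1.42.0, limma 3.58.1 with voom, a replicate block, leaving out each library, summed AKR1C counts and, added after seeing the data, coding length.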

Additional observations from a re-analysis of the deposited data

How the results depend on the processing

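AKR1C1, AKR1C2, AKR1C3 and AKR1B10 were called lower in every alternative run in which they were counted, including the leaving out of each library. Their log2 changes ranged from -1.66 to -1.49, from -1.24 to -1.07, from -0.61 to -0.49 and from -1.38 to -1.14. AKR1D1 (-0.25 to -0.19), AKR1A1 (0.02 to 0.15) and AKR7A2 (-0.03 to 0.09) were called in none. Total count scaling raised the share of called genes that were higher to 55.9%, from 50.7%. NRF2 genes called higher numbered 1 under total count scaling and 1 without an expression filter, and the other aldo-keto reductases called lower numbered 1 with a filter of 1 CPM in 3 libraries, since AKR1B15 was then not tested. Leaving out 1 library at a time gave 587 to 926 genes called higher and 655 to 1010 lower, with 590, 594, 617 and 587 higher without vehicle replicate 1 and glycine replicates 1, 2 and 3, and 655 lower without glycine replicate 2. Over the same fits, calls numbered 0 to 1 higher and 0 to 1 lower among the short-chain dehydrogenases, 0 to 1 higher among the steroid and bile acid enzymes, 1 to 4 lower in aldehyde removal, 0 to 1 higher and 3 to 5 lower among the NRF2 genes and 0 to 1 higher in NADPH supply. With a replicate block, 866 genes were higher and 918 lower, and 4 genes of the set were lower. Libraries with the same number did not deviate together (correlations -0.058, -0.027 and -0.003), so the numbers were not taken to pair them. The correlation was 0.214 for vehicle 1 with glycine 3, 0.214 for vehicle 2 with glycine 1 and 0.18 for vehicle 3 with glycine 2. All other matches were below 0. Whether libraries pair by day in another way than by number was not tested. The replicate block used the numbers, so no fit took account of such a pairing. Where not stated, the cause of a shift was not tested. Depth limits what can be said of AKR7A3 and AKR1C4, whether AKR1E2 could be counted was not tested, and shared sequence limits the division of counts within AKR1C.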
